A study of Mus musculus with 8 samples.

Results

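The genes described here are 53 mouse genes of tRNA charging and of the amino acid response, out of 12211 genes in the deposited count table. They comprise 20 genes of cytosolic aminoacyl-tRNA synthetases, 14 of mitochondrial synthetases and 19 of the response of transcription factor ATF4. The 19, called response genes below, include Atf4 itself and 2 kinase genes that act upstream of it. All 53 were listed by gene name and role, were found in the table and passed the filter on low counts. The libraries came from mouse embryonic fibroblasts, connective tissue cells grown out of embryos, of genotype PUS10KO (4 libraries) and of genotype WT, titled control (4 libraries), numbered 1 to 4 in each genotype. The PUS10 protein converts uridines of RNA into pseudouridine, and the series title ties it to tRNA fragments. All cells were grown in the same serum-containing medium, and no amino acid starvation or other treatment is named. How the knockout was made, whether the cells were single clones, their strain and the age of the embryos go unstated in the sources used here. So does whether libraries of a genotype came from separate cultures, and the p-values therefore speak only of the spread among these libraries, which may be technical.

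Aminoacyl-tRNA synthetases join each amino acid to its tRNAs. Separate nuclear genes, most of them named with a trailing 2, encode the enzymes that serve mitochondrial translation, while Gars and Kars serve both compartments. When tRNAs are left uncharged the kinase GCN2 (gene Eif2ak4) phosphorylates translation factor eIF2, and the kinase PERK (gene Eif2ak3) does so when proteins misfold in the endoplasmic reticulum. Phosphorylated eIF2 lowers protein synthesis in general but raises translation of the Atf4 mRNA, so the protein can change without its mRNA. ATF4 then activates genes of amino acid synthesis and transport, many cytosolic synthetase genes, and regulators such as Ddit3, Trib3 and Chac1.

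Depth was 17561114 to 24563499 counts in PUS10KO libraries and 18850689 to 23217332 counts in control libraries. Pus10 had 14.3, 15.2, 14.2 and 11.5 CPM (CPM being the usual depth-normalised read count, here with library totals scaled by TMM) in PUS10KO libraries 1 to 4, against 40.9, 51.5, 40.1 and 51.8 CPM in control libraries 1 to 4, so its level matched the labels. The 3 Y-linked genes tested were higher in PUS10KO, with a median log2 fold change of 11.48, so sex chromosome content and genotype coincided. Differences that go with either cannot be told apart in these libraries. All 11 fibroblast markers were in the table, and their summed level was 10932.5 to 16467 CPM in PUS10KO against 17229.6 to 21338 CPM in control libraries, without overlap. Of 6 macrophage markers 3 were in the table (sum 2.51 to 6.67 CPM in PUS10KO, 5.0 to 9.05 CPM in control), and the defining gene Ptprc was not. None of 5 epithelial markers was in it. Of 4 endothelial markers 2 were present (1.19 to 3.12 CPM in PUS10KO, 2.52 to 4.92 CPM in control). Of 4 muscle markers 2 were present (1.43 to 3.36 CPM in PUS10KO, 9.96 to 152 CPM in control), without Myod1 and Myog. Of 3 neuron markers 2 were present (23.6 to 67.9 CPM in PUS10KO, 29.9 to 109 CPM in control). The part of these differences in the results below was not tested, and in bulk samples fewer cells of a kind and less RNA per cell cannot be told apart.

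Most of the 53 genes did not pass the test between genotypes. In PUS10KO 3 genes fell, the cytosolic synthetase genes Wars and Nars and the transcription factor gene Ddit3, and none rose (quasi-likelihood test of edgeR, p-values adjusted by Benjamini-Hochberg over all 11909 genes, threshold 0.05). That is 5.66% of the members, where 13% of all genes tested passed, 5.9% as higher and 7.11% as lower. DESeq2 called 0 members as higher and 6 as lower, against 9.1% and 10.4% of all genes, and limma voom 0 and 2, against 5.87% and 6.84%. At an unadjusted p under 0.05 there were 11 of the 53 members and 3115 of the 11909 genes. The median log2 fold change was -0.11 over the members and 0.01 over all genes tested, and 35 of the 53 members lay below 0.

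Libraries of the same number deviated together in both genotypes, so a fit that takes out the differences between numbers, called the replicate block below, bears on every result. With it 2 members rose (Kars and Cebpb) and 16 fell, 34% of the members, where 39% of all genes passed. Of all genes 19.1% rose and 19.9% fell in that fit. Of the 18 block calls 9 held in each of the 4 block fits that left out 1 number: Aars, Gars, Nars, Sars, Wars, Ddit3, Cebpb, Asns and Trib3. How many block calls of all genes held in this way was not counted, so these 9 have no background share beside them. In 21 members PUS10KO was lower than control within all 4 numbers, and in 9 it was higher within all 4, where 26.9% and 28.4% of all genes tested did so. For 7 members the 4 PUS10KO values lay below all 4 control values, and for none above, where 10.6% and 9.7% of all genes did. Those 7 were Gars, Lars, Nars, Wars, Iars2, Vars2 and Mthfd2.

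**Figure D1:**
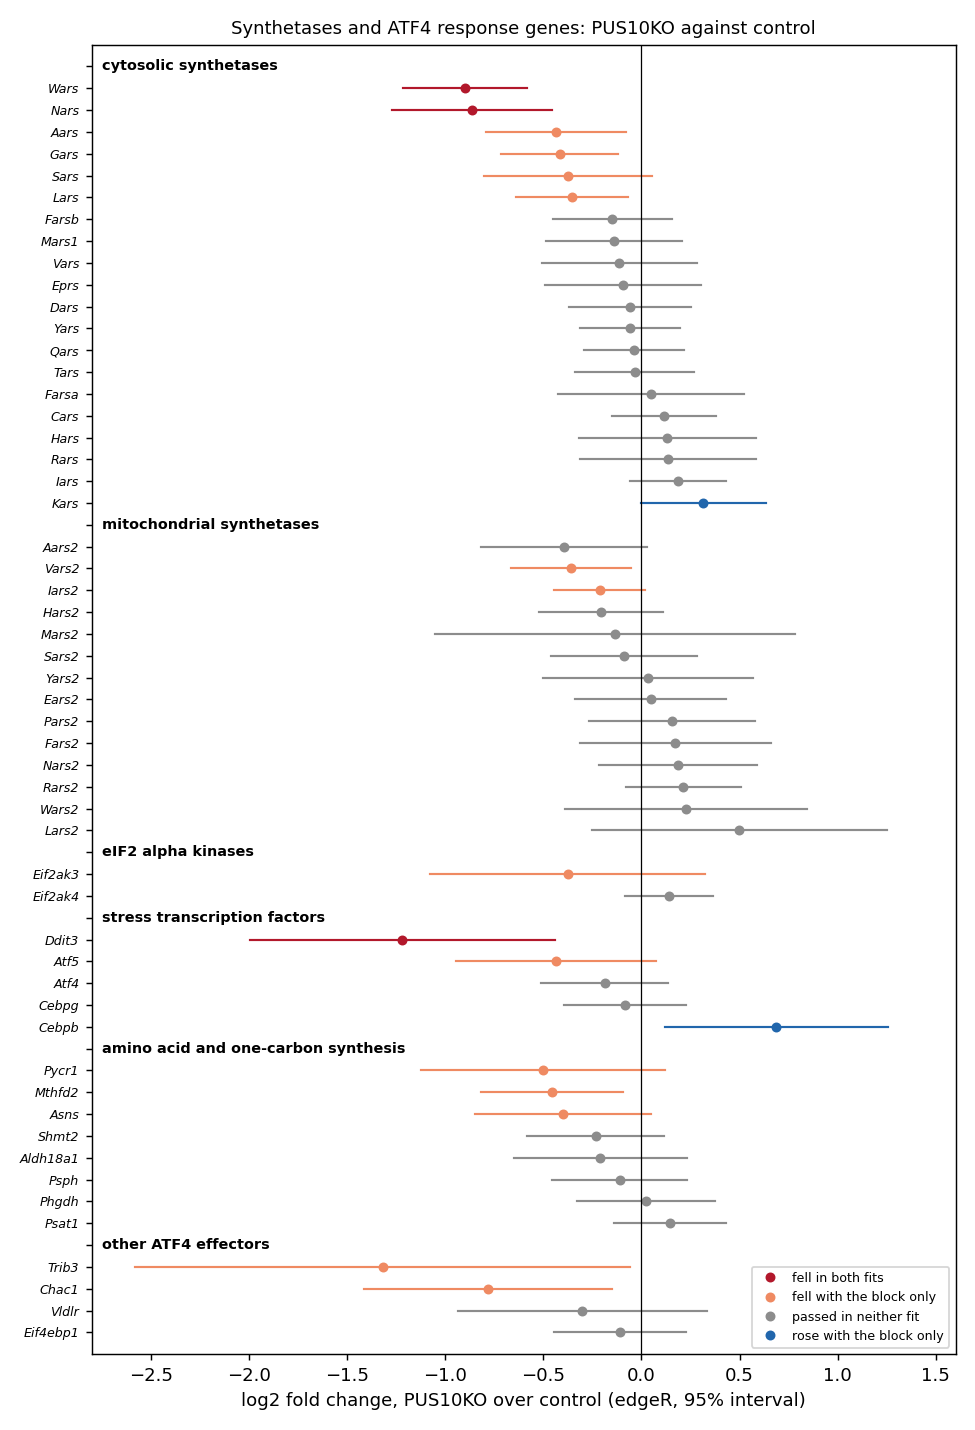
Log2 fold change of PUS10KO over control (x axis) for all 53 genes (y axis, by role), with 95% intervals from the edgeR fit without the replicate block; colours give the calls without and with the block. Wars, Nars and Ddit3 fell in both fits, and most intervals include 0.

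ATF4, paired with a C/EBP factor, binds the C/EBP-ATF response element, whose core letters TGATGNAA were searched on both strands in RefSeq promoter windows (250 bases before to 50 after the gene's start, GRCm38.p6). Windows were found for 43 of the 53 members, and 10 of them held the letters (23.3%), against 4.51% of the 27025 genes with a window. They stood in 5 of 13 cytosolic synthetase genes, 2 of 8 synthesis genes and all 3 other effector genes with a window. They stood in 0 of 12 mitochondrial synthetase genes, 0 of 5 transcription factor genes and 0 of 2 kinase genes. No window was in the table for Cars, Hars, Lars, Nars, Rars, Vars, Wars, Hars2, Pars2 and Eif4ebp1. Of the 10 genes with the letters 6 fell with the replicate block (Aars, Gars, Asns, Pycr1, Trib3 and Chac1), none rose, and Iars, Tars, Yars and Vldlr did not pass. Of the 33 without them 7 fell and 2 rose. Without the block none of the 10 genes with the letters passed the edgeR test. Of the genes that did pass it, Ddit3 had a window without the letters, and Wars and Nars had no window. The median log2 fold change was -0.41 with the letters and -0.09 without. This is a description of letters in a window and not of binding. Because members were listed by role, many of them as ATF4 response genes, their higher share may follow from how the list was drawn. Calls and medians were not split by the letters over all genes. A match in each of these 10 genes is shown with its flanks so that the letters can be set beside the calls, 5′ to 3′ in the direction of the gene, with the match in capitals:

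Aars, chr8:111033851-111033858, plus strand: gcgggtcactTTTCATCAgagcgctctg

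Gars, chr6:55037971-55037978, plus strand: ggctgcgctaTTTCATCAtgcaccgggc

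Iars, chr13:49682137-49682144, plus strand: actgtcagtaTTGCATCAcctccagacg

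Tars, chr15:11399666-11399673, minus strand: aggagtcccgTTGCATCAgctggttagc

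Yars, chr4:129189906-129189913, plus strand: cgagctcagcTGATGCAAcccgacggga

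Asns, chr6:7693225-7693232, minus strand: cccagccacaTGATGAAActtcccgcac

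Pycr1, chr11:120643844-120643851, minus strand: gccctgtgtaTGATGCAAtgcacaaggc

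Trib3, chr2:152344039-152344046, minus strand: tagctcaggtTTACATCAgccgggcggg

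Chac1, chr2:119351049-119351056, plus strand: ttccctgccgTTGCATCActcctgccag

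Vldlr, chr19:27216820-27216827, plus strand: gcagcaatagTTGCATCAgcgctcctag

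In Asns the match began 23 bases before the RefSeq start, and in Chac1 193 bases before it. The whole 250 bases before the start are given for these 2 genes, which differ in how near the match lies.

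Asns, chr6:7693210-7693459, minus strand: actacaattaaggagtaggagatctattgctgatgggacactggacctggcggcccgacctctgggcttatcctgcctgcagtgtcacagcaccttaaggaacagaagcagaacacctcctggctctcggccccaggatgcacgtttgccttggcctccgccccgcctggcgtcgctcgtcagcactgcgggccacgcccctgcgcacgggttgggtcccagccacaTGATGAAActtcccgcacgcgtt

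Chac1, chr2:119350992-119351241, plus strand: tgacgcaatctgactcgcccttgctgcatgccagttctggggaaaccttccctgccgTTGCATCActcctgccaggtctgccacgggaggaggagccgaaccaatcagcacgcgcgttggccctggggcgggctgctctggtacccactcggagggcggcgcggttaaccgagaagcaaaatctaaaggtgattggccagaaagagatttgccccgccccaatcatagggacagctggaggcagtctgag

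Among the 20 cytosolic synthetase genes 2 fell, none rose and 18 did not pass, with a median log2 fold change of -0.08. Wars, which charges tryptophan tRNA (ENSMUSG00000021266.16, chromosome 12, 108860030 to 108894174, minus strand, GRCm38), had 97.7, 79.6, 66.3 and 70.5 CPM in PUS10KO libraries 1 to 4, against 155, 145, 137 and 149.7 CPM in control libraries 1 to 4. Every PUS10KO library lay below every control library. The means were 78.5 ± 13.9 CPM in PUS10KO and 147 ± 7.55 CPM in control (SD, n = 4 each), a log2 fold change of -0.90 (SE 0.14, edgeR adjusted p = 0.00356). Genes of chromosome 12 were lower as a whole, with a median log2 fold change of -0.60 over 405 genes tested, and 17.8% of them had a lower fold change than Wars. Relative to that median Wars was at -0.30.

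Nars, which charges asparagine tRNA (chromosome 18), had 455, 389, 319 and 355 CPM in PUS10KO libraries 1 to 4, against 895, 668, 548 and 653 CPM in control libraries 1 to 4. The groups did not overlap, and within each number PUS10KO was lower by a similar amount, with log2 differences of -0.97, -0.78, -0.78 and -0.88. The means were 379.7 ± 57.9 CPM in PUS10KO and 691 ± 146 CPM in control (SD, n = 4 each), a log2 fold change of -0.86 (SE 0.18, edgeR adjusted p = 0.0141). The median of chromosome 18 was -0.16, and relative to it Nars was at -0.70. Leaving out any 1 of the 8 libraries kept the calls of Wars and Nars, with edgeR adjusted p up to 0.0135 for Wars and 0.04997 for Nars.

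With the replicate block 4 more cytosolic synthetase genes fell and Kars rose. DESeq2 without the block called 5 of the 20 as lower, where it called 10.4% of all genes as lower. Besides Wars and Nars these were Aars, Gars and Lars (DESeq2 adjusted p 0.0497, 0.0142 and 0.0337). Sars and Kars did not pass there (DESeq2 adjusted p 0.223 and 0.114). The p-values below are from edgeR. Aars, for alanine, had 496, 484, 478 and 599 CPM in PUS10KO libraries 1 to 4, against 596, 595, 742 and 851 CPM in control libraries 1 to 4 (log2 fold change -0.44, adjusted p 0.113 without and 0.00639 with the block). Its highest PUS10KO library, number 4, lay just above its lowest control libraries, numbers 1 and 2. Aars shares 1326 exon bases with Exosc6 on the same strand, where strand cannot tell the reads of the pair apart. Gars, for glycine, had 421, 374, 343 and 408 CPM in PUS10KO libraries 1 to 4, against 550.5, 449, 484 and 580.3 CPM in control libraries 1 to 4 (log2 fold change -0.42, adjusted p 0.0717 without and 0.00422 with the block). Its groups did not overlap. Sars, for serine, was at -0.37 on the log2 scale (adjusted p 0.253 without and 0.00567 with the block), and Lars, for leucine, -0.35 (adjusted p 0.106 without and 0.0211 with the block). Libraries 3 and 4 of Sars were the higher in both genotypes. It had 295, 286, 355 and 416 CPM in PUS10KO libraries 1 to 4, against 357, 365, 477 and 552 CPM in control libraries 1 to 4. Kars, for lysine, had 458, 446, 370.3 and 351 CPM in PUS10KO libraries 1 to 4, against 287, 374, 333 and 312 CPM in control libraries 1 to 4 (log2 fold change 0.32, adjusted p 0.194 without and 0.0425 with the block). Its block call was lost in each of the 4 fits with the block that left out 1 number (adjusted p up to 0.0998).

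The other 13 cytosolic synthetase genes passed in neither fit. Their log2 fold changes ran from -0.15 for Farsb to 0.19 for Iars. The intervals give what these data allow: for Iars the 95% interval was -0.06 to 0.43, for Tars -0.34 to 0.27, and for Farsa, a subunit of the phenylalanine enzyme, -0.43 to 0.52. Eprs, the fused enzyme for glutamate and proline, had 636, 643, 604 and 675 CPM in PUS10KO libraries 1 to 4, against 627, 542, 629 and 935 CPM in control libraries 1 to 4, so that control 4 alone stood above the PUS10KO range. Summed over the 20 genes, cytosolic synthetases took 5771, 5648, 4905 and 5374 CPM in PUS10KO libraries 1 to 4, against 6181, 6059, 5949 and 6842 CPM in control libraries 1 to 4. The sums did not overlap, with means of 5424 CPM in PUS10KO and 6257 CPM in control. A sum weighs genes by their level, and Nars alone had means of 379.7 CPM in PUS10KO and 691 CPM in control. The median log2 fold change of the 20 genes was -0.08, so the sums do not describe the class gene by gene.

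None of the 14 mitochondrial synthetase genes passed the edgeR test, 1 had an unadjusted p under 0.05, DESeq2 and limma voom called 0, and with the block 2 fell. Their median log2 fold change was 0.04. Vars2, for mitochondrial valine tRNA, had 20.8, 16.5, 20.5 and 18.9 CPM in PUS10KO libraries 1 to 4, against 23.9, 23.1, 28.5 and 22.9 CPM in control libraries 1 to 4 (log2 fold change -0.36, SE 0.14, adjusted p 0.128 without and 0.022 with the block). Every PUS10KO library lay below every control library. Vars2 shares 465 exon bases with an annotated antisense gene, and the sources used here do not give the strand setting of the counting, so reads of the pair cannot be told apart.

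Aars2, for mitochondrial alanine tRNA, had 12.1, 11.8, 10.5 and 9.96 CPM in PUS10KO libraries 1 to 4, against 10.1, 15.5, 16.9 and 15.8 CPM in control libraries 1 to 4 (log2 fold change -0.39, adjusted p 0.223 without and 0.11 with the block). Control 1 lay within the PUS10KO range and the other control libraries above it. Iars2, for isoleucine, had 158, 151.5, 145 and 139.7 CPM in PUS10KO libraries 1 to 4, against 184, 176, 166 and 162 CPM in control libraries 1 to 4. Its log2 fold change of -0.21 had an adjusted p of 0.229, or 0.0444 with the block. The block call was lost in each of the 4 block fits without 1 number (adjusted p up to 0.162). Its exons overlap those of Rab3gap2 on the other strand by 2034 bases. Lars2, for leucine, had the highest log2 fold change of this class, 0.50 (95% interval -0.25 to 1.25, adjusted p = 0.389) on 3.38 to 10.3 CPM in PUS10KO and 3.46 to 5.72 CPM in control libraries. Mars2 followed the library number, with 35.7, 33.5, 16.4 and 14.4 CPM in PUS10KO libraries 1 to 4, against 41.5, 34.9, 17.4 and 16.0 CPM in control libraries 1 to 4.

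Levels per kilobase of annotated exon set the classes apart in both genotypes. The median over the cytosolic synthetase genes was 51.2 CPM per kilobase in PUS10KO and 60.3 CPM per kilobase in control, and over the mitochondrial ones 3.14 CPM per kilobase in PUS10KO and 2.97 CPM per kilobase in control. In control libraries Gars was highest (165 CPM per kilobase) and Yars lowest (20.6 CPM per kilobase) among cytosolic genes, and Iars2 highest (19.4 CPM per kilobase) and Lars2 lowest (0.42 CPM per kilobase) among mitochondrial genes. The ratio of the cytosolic to the mitochondrial gene of an amino acid was smallest for tyrosine, Yars over Yars2, at 1.49 in PUS10KO and 1.58 in control. For asparagine, Nars over Nars2, it was 45.3 in PUS10KO and 94.0 in control, and for tryptophan, Wars over Wars2, 6.88 in PUS10KO and 15.03 in control. These ratios are of mean levels and were not tested.

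**Figure D2:**
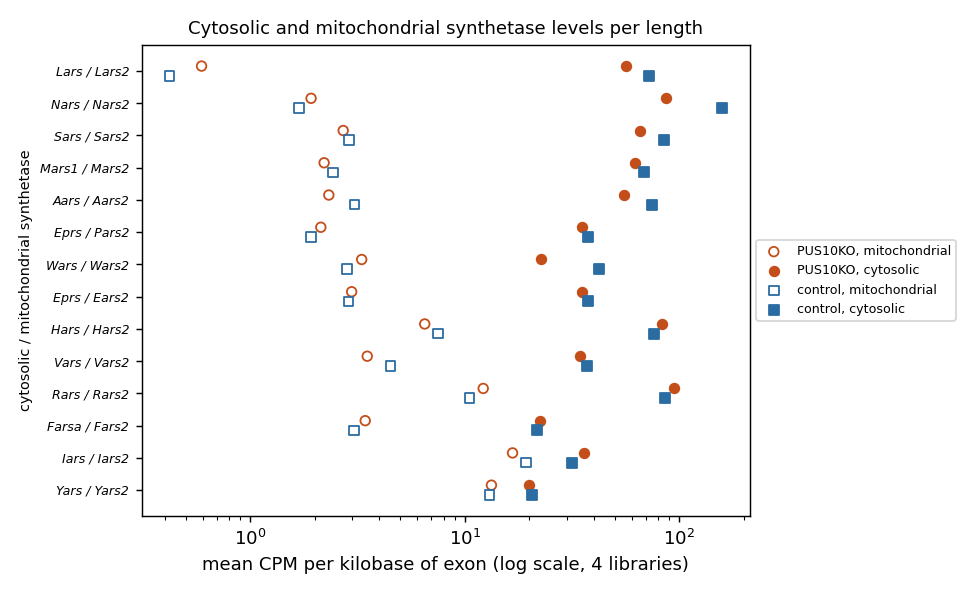
Mean CPM per kilobase of exon (x axis, log scale, 4 libraries a genotype) for the cytosolic (filled) and mitochondrial (open) synthetase gene of each amino acid (y axis), in PUS10KO (orange) and control (blue). The cytosolic gene is the higher in every pair, and Nars and Wars show the widest gap between genotypes among cytosolic genes.

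Neither kinase gene of the response passed the edgeR test. Eif2ak4, which encodes GCN2, had 45.9, 49.6, 49.98 and 47.9 CPM in PUS10KO libraries 1 to 4, against 45.0, 43.3, 41.2 and 46.0 CPM in control libraries 1 to 4 (log2 fold change 0.14, 95% interval -0.08 to 0.36, adjusted p 0.42 without and 0.216 with the block). The groups overlapped by a narrow margin, through control 4 and PUS10KO 1. Eif2ak3, which encodes PERK, had 17.7, 18.1, 31.2 and 37.7 CPM in PUS10KO libraries 1 to 4, against 30.1, 21.3, 43.3 and 41.0 CPM in control libraries 1 to 4. Libraries 3 and 4 were the higher in both genotypes, and PUS10KO was lower within every number (log2 fold change -0.38, adjusted p 0.494 without and 0.031 with the block). The block call was kept in 1 of the 4 block fits without 1 number (adjusted p up to 0.108). Eif2ak3 shares 485 exon bases with an opposite-strand transcript of the annotation.

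Of the 5 transcription factor genes Ddit3 fell and the other 4 did not pass. Ddit3 encodes CHOP, a C/EBP-like factor that ATF4 induces (chromosome 10, 127290774 to 127296288, plus strand, GRCm38). It had 20.3, 21.5, 38.0 and 33.7 CPM in PUS10KO libraries 1 to 4, against 35.7, 48.7, 83.2 and 96.6 CPM in control libraries 1 to 4. Libraries 3 and 4 were the higher in both genotypes, and the groups overlapped only in that PUS10KO 3 lay above control 1. The means were 28.4 ± 8.83 CPM in PUS10KO and 66.1 ± 28.6 CPM in control (SD, n = 4 each), a log2 fold change of -1.22 (SE 0.34, edgeR adjusted p = 0.0489). The call was a narrow one without the block. It was kept in 1 of 8 fits that left out 1 library, the one without control 1, and lost in the other 7 (adjusted p up to 0.124). With upper-quartile scaling the adjusted p was 0.0688 and by limma voom 0.0635. With the block it was 0.000162, and the call held in each of the 4 block fits without 1 number (adjusted p up to 0.00188). Within numbers 1 to 4 the log2 differences were -0.81, -1.18, -1.13 and -1.52. Ddit3 shares 68 exon bases with Mars1 on the opposite strand, and Mars1, for methionine, was at -0.14 on the log2 scale (adjusted p = 0.624).

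Atf4 itself had 597, 547, 469.9 and 474 CPM in PUS10KO libraries 1 to 4, against 503, 596, 589 and 689.7 CPM in control libraries 1 to 4. The groups overlapped, PUS10KO was the higher in number 1 and the lower in numbers 2 to 4, and the log2 fold change was -0.19 (95% interval -0.51 to 0.13, adjusted p 0.453 without and 0.263 with the block). Per kilobase it was the highest of the 53 members, at 221 CPM in PUS10KO and 252 CPM in control. Atf5, a close relative, was at -0.44 on the log2 scale (adjusted p 0.26 without and 0.0213 with the block). Cebpb, a C/EBP factor also induced by inflammatory signals, went the other way. It had 106, 122, 105 and 165 CPM in PUS10KO libraries 1 to 4, against 48.3, 69.1, 84.2 and 108 CPM in control libraries 1 to 4 (log2 fold change 0.69, SE 0.25, adjusted p 0.118 without and 0.00301 with the block). PUS10KO was higher within every number, and the groups overlapped only through control 4. Without control 4 Cebpb passed also without the block (adjusted p = 0.0492). Its exons overlap those of Tmem189 on the opposite strand by 312 bases. Cebpg, a partner of ATF4, had a log2 fold change of -0.08 (95% interval -0.40 to 0.23).

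**Figure D3:**
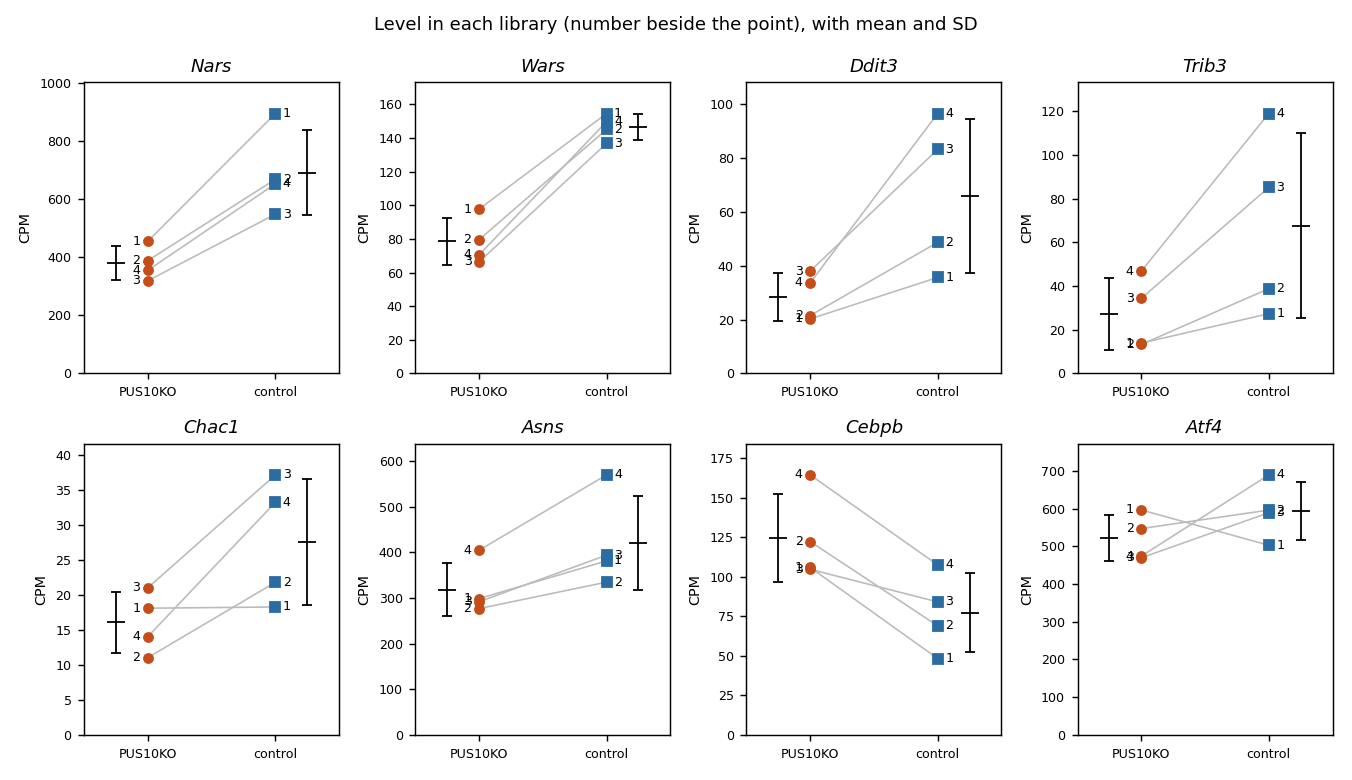
CPM in each library (y axis from 0; the number beside a point is the library number, grey lines join libraries of the same number) for 8 genes in PUS10KO (orange) and control (blue), with mean and SD beside the points. Ddit3 and Trib3 are higher in libraries 3 and 4 of both genotypes and lower in PUS10KO within every number, and Nars and Wars do not overlap between genotypes.

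None of the 8 genes of amino acid and one-carbon synthesis passed the edgeR test, 1 had an unadjusted p under 0.05, DESeq2 and limma voom called 0, and with the block 3 fell. Asns, asparagine synthetase, had 298, 277, 292 and 404 CPM in PUS10KO libraries 1 to 4, against 381, 335, 394 and 569 CPM in control libraries 1 to 4. Library 4 was the highest of each genotype, and the log2 differences within numbers were -0.35, -0.27, -0.43 and -0.49 (log2 fold change -0.40, SE 0.20, adjusted p 0.241 without and 0.005 with the block). Mthfd2, a mitochondrial folate enzyme, had 132, 128, 86.4 and 105 CPM in PUS10KO libraries 1 to 4, against 142, 167, 137 and 171 CPM in control libraries 1 to 4. Its groups did not overlap (log2 fold change -0.45, SE 0.16, adjusted p 0.104 without and 0.0114 with the block). Pycr1, which makes proline, was at -0.50 on the log2 scale (adjusted p 0.29 without and 0.0124 with the block). Of the serine synthesis genes none passed in either fit. The log2 fold change was 0.02 for Phgdh, 0.15 for Psat1 and -0.11 for Psph. Shmt2, which passes serine carbon to folate, had -0.23 and lies on chromosome 10, whose median was -0.25. Aldh18a1, upstream of Pycr1, had -0.21 and passed in neither fit.

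The 4 remaining effector genes were all lower in value within every number, and none passed without the block. Trib3, a pseudokinase that feeds back on ATF4, had the largest fold change of the 53 members. It had 13.9, 13.3, 34.4 and 46.9 CPM in PUS10KO libraries 1 to 4, against 27.4, 38.8, 85.2 and 119 CPM in control libraries 1 to 4. Libraries 3 and 4 were the higher in both genotypes, so the groups overlapped although every number showed PUS10KO lower, with log2 differences of -0.98, -1.54, -1.31 and -1.34. Without the block the log2 fold change was -1.32 with an SE of 0.56 (adjusted p = 0.172), and with it -1.30 (adjusted p = 5.25e-05), a call kept in each of the 4 block fits without 1 number. Chac1, which breaks down glutathione, had 18.1, 11.1, 21.1 and 14.1 CPM in PUS10KO libraries 1 to 4, against 18.3, 21.8, 37.2 and 33.3 CPM in control libraries 1 to 4. In number 1 the genotypes were level, and in the other numbers PUS10KO was lower (log2 fold change -0.78, SE 0.28, adjusted p 0.109 without and 0.0123 with the block). That block call was kept in 1 of the 4 block fits without 1 number (adjusted p up to 0.0632). Eif4ebp1, a brake on translation initiation, had a log2 fold change of -0.11, and the lipoprotein receptor gene Vldlr -0.30; neither passed in either fit.

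The 4 library numbers take more of a gene's variance than the 2 genotypes by their count alone, so shares are read only beside those of all genes. In a split of the variance over the 8 libraries (log2 CPM), number held a median of 60.4% and genotype 22.0% over the members, against 58.0% and 22.1% over all genes tested. Genotype held most in Wars (89.4%) and Nars (78.5%), and number in Mars2 (98.6%) and Yars2 (96.2%). In Trib3 number held 60.9% and genotype 38.1%, and in Ddit3 39.5% and 57.8%. The median difference of PUS10KO from control over the 19 response genes was -0.10, -0.14, -0.39 and -0.35 on the log2 scale in numbers 1 to 4. Over the 20 cytosolic synthetase genes it was 0.05, -0.00277, -0.18 and -0.19, and over all genes tested 0.02, 0.00, 0.00 and 0.02. What the numbers stand for is not given in the labels.

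**Figure D4:**
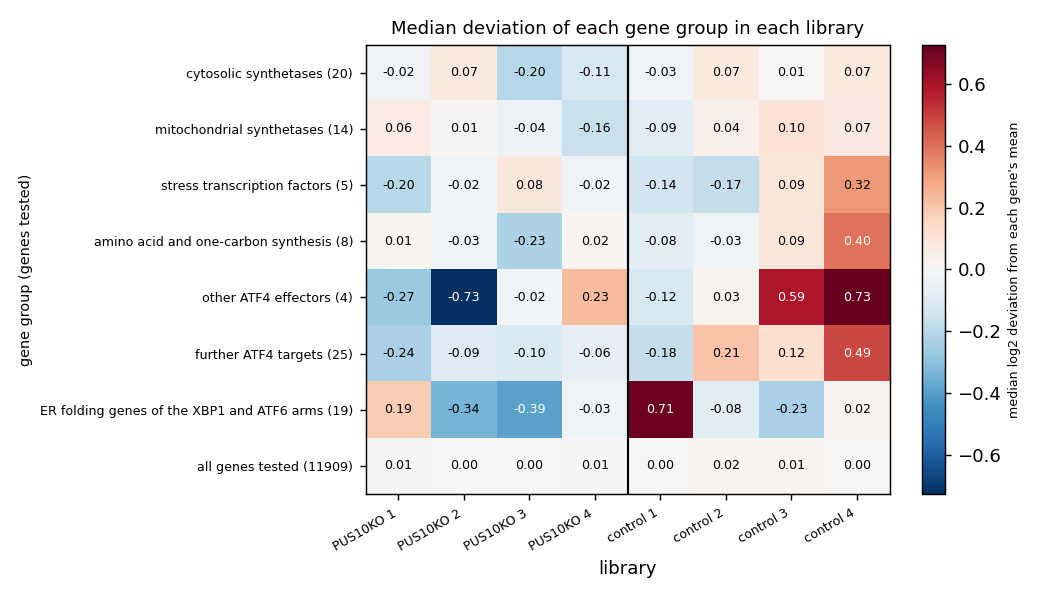
Median log2 deviation from each gene's mean over the 8 libraries (colour and printed value) for each gene group (rows, genes tested in brackets) in each library (columns, PUS10KO left of the line). The other ATF4 effectors are highest in control 3 and 4 (0.59 and 0.73) and lowest in PUS10KO 2 (-0.73), while all genes tested stay near 0.

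Chromosome medians of the fold change were not all 0, so members were also read against the median of their own chromosome. Relative to it, 33 of the 53 members were lower and the median was -0.08. The 19 response genes had a median of -0.22. The value of Wars was the one moved most among the genes that fell, as given above. Ddit3 was at -0.97 against a chromosome 10 median of -0.25, and 7.48% of the 575 genes tested there had a lower fold change. Trib3, on chromosome 2, was at -1.40, and Cebpb, on the same chromosome, at 0.60.

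Further genes of the pathway were counted from lists of names. Beside these counts, 5.9% of all genes tested rose and 7.11% fell without the block, and 19.1% rose and 19.9% fell with it. The lists are short, so some counts lie near those shares. Of 25 tested further ATF4 targets 3 fell, none rose and 22 did not pass, with a median log2 fold change of -0.22; with the block 9 fell and 4 rose. Ero1l, an oxidase of the endoplasmic reticulum, averaged 68.3 ± 4.14 CPM in PUS10KO and 134 ± 20.5 CPM in control (SD, n = 4 each; log2 fold change -0.97, edgeR adjusted p = 0.00191). Jdp2, a bZIP factor on chromosome 12, was at -1.08 on the log2 scale (edgeR adjusted p = 0.00385), and Xpot, the tRNA export receptor gene on chromosome 10, at -0.43 (edgeR adjusted p = 0.0488). Relative to its chromosome median Xpot was at -0.18, and its call was lost whichever 1 library was left out (edgeR adjusted p 0.0714 to 0.143). Of 15 synthetase partners and synthetases outside the members 1 rose and none fell, with a median of 0.33, and with the block 7 rose and 1 fell. Tarsl2, a second cytosolic threonine enzyme, averaged 31.1 ± 3.89 CPM in PUS10KO and 18.2 ± 2.97 CPM in control (log2 fold change 0.77, edgeR adjusted p = 0.0128), while Tars had -0.04. Of 13 genes of eIF2 and its exchange factor eIF2B 2 fell and none rose, with a median of 0.07, and with the block 3 fell and 2 rose. Eif2b2, on chromosome 12, was at -0.99 on the log2 scale (edgeR adjusted p = 0.00188), and Eif2b5 at -0.39 (edgeR adjusted p = 0.0365). Relative to their chromosome medians Jdp2 was at -0.48, Eif2b2 at -0.38 and Eif2b5 at -0.20. The call of Eif2b5 was kept in 1 of 8 fits without 1 library (edgeR adjusted p up to 0.117).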

How the data were processed

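RNA-seq libraries of 4 PUS10KO and 4 control fibroblast samples were compared, grouped by their titles. The authors deposited whole-number read counts per gene, not normalized. They also deposited a normalized table that by its values is on a log2-like scale. Total RNA libraries were stranded and paired-end, per the labels' protocols; per the submitters' processing notes STAR 2.7.8a, DESeq2 and mm10 were used, and the sources used here do not name the counter, strand setting or gene filter. Members and lists were chosen with earlier results of these data known.

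The test used edgeR 4.0.16 under R 4.3.3 (filterByExpr, TMM, quasi-likelihood test, robust, genotype only, all 8 libraries) over 11909 genes, adjusted p threshold 0.05. DESeq2 1.42.0, limma 3.58.1 voom, other scalings, no filter, the replicate block and each library left out were alternatives. The fit was checked on simulated data that held no differences between library numbers, so that check does not bear on the choice of the block. Library numbers were taken to pair the libraries, since deviations from the genotype means correlated between same-numbered libraries (r = 0.661, 0.692, 0.606 and 0.667, taken over genes, which do not count as replicates). The highest value between different numbers was 0.562, for PUS10KO 3 with control 4. The pairing comes from the counts, not the labels. The authors' normalized table uses the same numbers: same-numbered libraries sum to the same value in every number, for all 12211 genes (tolerance 1e-06). Genes were named by rule: every called member, and in each class with fewer than 2 of these the lowest p up to 2; of other lists up to 4 called genes. Other members were named after their values were seen. Positions and exon lengths are from GENCODE M21 (GRCm38), matched by symbol or RefSeq synonym, where Mars1 is Mars; promoter sequences are from RefSeq (GRCm38.p6). A further sequence match is not reported here.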

Additional observations from a re-analysis of the deposited data

Results flagged for a closer look

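In 4 of 106 groups of 4 libraries (53 genes in each genotype) 1 library stood apart from the other 3 by Dixon's test, where chance gives about 1 in 20 groups. All 4 were libraries numbered 4, each above the rest of its genotype. Aars had 599 CPM in PUS10KO 4, against 478 to 496 CPM in the other PUS10KO libraries. Eif4ebp1 had 278 CPM in PUS10KO 4, against 204 to 208 CPM in the others. Lars had 459 CPM in control 4, against 356 to 373 CPM in the other control libraries. Tars had 523 CPM in control 4, against 401 to 418 CPM in the others.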

How the results depend on the processing

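Adding the replicate block gave 2 members that rose and 16 that fell, against 0 and 3 without it, and DESeq2 gave 6 that fell. Of all genes 19.1% rose and 19.9% fell with the block, 9.1% and 10.4% by DESeq2, and 5.87% and 6.84% by limma voom. Leaving out 1 library gave 0 to 1 that rose and 2 to 3 that fell, and leaving out 1 number from the block fit, an alternative added after seeing the data, gave 1 to 2 that rose and 8 to 18 that fell. Class medians moved by less than 1 SD between libraries, but in some classes by over 1.5 times where 1 library was left out. For example, the mitochondrial median was -0.01 without PUS10KO 1, against 0.04, the cytosolic one -0.02 without control 4, against -0.08, and that of the ATF4 response -0.10 without control 4, against -0.23. For synthetase partners the block gave 7 that rose and 1 that fell, DESeq2 4 that rose and limma voom 2 that rose, against 1 and 0. For further ATF4 targets the block gave 4 that rose and 9 that fell, and DESeq2 1 that rose and 6 that fell, against 0 and 3. For endoplasmic reticulum folding genes the block gave 6 that fell and DESeq2 2, against 1. For eIF2 and eIF2B genes the block gave 2 that rose and DESeq2 1, against 0. The cause was not tested. None of the 12 members named by rule changed sign in any alternative. In the authors' deposited normalized table, fitted with limma and the block, the log2 fold change was -0.87 for Wars, -0.84 for Nars, -1.03 for Ddit3 and -1.12 for Trib3. In that table same-numbered libraries summed to the same value in every number, for all 12211 genes (tolerance 1e-06). Differences between numbers were thus already taken out of it, and it is not a check independent of the block. Intervals were widest for Trib3 and Mars2 (SE 0.56 and 0.41), which differ between numbers. Lars2, at low counts, had an SE of 0.33, but Pars2, also at low counts, 0.19. With intervals of such widths, fold changes near those of most members could not be resolved without the block.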

Other observations

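The folding genes of the endoplasmic reticulum, which the XBP1 and ATF6 arms of the unfolded protein response control, differed mostly between library numbers. Number held a median of 93.7% of their variance and genotype 2.17%, against 58.0% and 22.1% over all genes tested. Control 1 had the highest median deviation (0.71 on the log2 scale) and PUS10KO 3 the lowest (-0.39). Of 19 tested genes 1 fell, none rose and 18 did not pass (edgeR adjusted p threshold 0.05), with a median log2 fold change of -0.13. Over all genes tested 7.11% fell and 5.9% rose. Sel1l, of the degradation machinery and on chromosome 12, averaged 110.5 ± 15.7 CPM in PUS10KO and 175 ± 30 CPM in control (SD, n = 4 each; log2 fold change -0.67, edgeR adjusted p = 0.0261). Relative to the median of chromosome 12 it was at -0.06, and its call was kept in 2 of 8 fits without 1 library (edgeR adjusted p up to 0.0662). In libraries 1 to 4 the median deviation was 0.19, -0.34, -0.39 and -0.03 in PUS10KO, and 0.71, -0.08, -0.23 and 0.02 in control. Ddit3 and Trib3 were higher in libraries 3 and 4 of both genotypes, and a link between them and the folding genes was not tested.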
